A study of Mus musculus with 12 samples.

Results

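Sterol and fatty acid synthesis was followed through 31 genes in mouse embryonic stem (ES) cells over 4 days of sampling. The genes were taken by name from a table of 55335 genes, and each name matched 1 row. They comprise 18 enzymes of sterol synthesis, 6 genes of sterol sensing and transport, and 7 enzymes of fatty acid synthesis. The samples were taken at day 0, day 2, day 4 and day 6, with 3 libraries of polyadenylated RNA at each day and 12 in all. All 12 carry the same label, an ES cell line called mESC, and the same culture description: medium with KnockOut Serum Replacement and LIF (a cytokine used to keep ES cells undifferentiated), on plates coated with gelatin and seeded with irradiated fibroblasts of mouse embryos as feeder cells. No genotype, allele or agent is given for any day, and the sources used here do not give the treatment that began at day 0, if any. The labels do not say whether the 3 libraries of a day came from separate cultures, so p-values here reflect the spread among libraries alone, and that spread may be technical.

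Cells build cholesterol from acetyl-CoA by way of mevalonate, isoprenoid diphosphates and squalene, and then by a run of demethylations, reductions and isomerisations that begins at lanosterol. Fatty acids start from the same acetyl-CoA, by way of malonyl-CoA, and are then elongated and desaturated. Both arms are known targets of the sterol regulatory element binding proteins (SREBPs), which are made as membrane proteins of the endoplasmic reticulum. SCAP escorts them to the Golgi when sterols are scarce, where proteases release the active part, and the INSIG proteins hold SCAP back when sterols are plentiful. Pluripotent cells make both kinds of lipid for their membranes as they divide.

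The promoters of 5 members are shown because these genes followed different courses: Hmgcs1 was highest at day 2, Pmvk and Srebf2 fell at every later day against day 0, Insig1 rose at every later day, and Fasn stands for the fatty acid arm. The sequences are from RefSeq on GRCm38.p6, 5′ to 3′ on the gene's strand, up to 250 bases before the start of transcription. For Insig1 and Srebf2 the 49 and 88 bases nearest to the RefSeq start are left off, because GENCODE places the gene start farther upstream. Capitals mark letters found by search on both strands for TCACNCCAC, ATCACNCCA, TCACGTG and CCAAT, the first 3 of which are forms of the sterol regulatory element or the E-box and the last the box bound by NF-Y.
Hmgcs1 (chr13:119690101-119690350, plus strand): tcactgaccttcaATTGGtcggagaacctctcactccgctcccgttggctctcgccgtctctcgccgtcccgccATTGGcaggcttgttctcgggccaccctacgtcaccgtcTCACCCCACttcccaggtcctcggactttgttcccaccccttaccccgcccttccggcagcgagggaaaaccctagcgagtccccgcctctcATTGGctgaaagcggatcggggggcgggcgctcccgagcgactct
Pmvk (chr3:89454291-89454540, plus strand): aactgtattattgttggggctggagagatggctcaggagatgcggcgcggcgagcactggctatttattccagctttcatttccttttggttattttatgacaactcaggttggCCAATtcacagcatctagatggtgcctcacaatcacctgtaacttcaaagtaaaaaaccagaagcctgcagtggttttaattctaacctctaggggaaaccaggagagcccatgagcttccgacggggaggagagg
Insig1 (chr5:28071162-28071362, plus strand): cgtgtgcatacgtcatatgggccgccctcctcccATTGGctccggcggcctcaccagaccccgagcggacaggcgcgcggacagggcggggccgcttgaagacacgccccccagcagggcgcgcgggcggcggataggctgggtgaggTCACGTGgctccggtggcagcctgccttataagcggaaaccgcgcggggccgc
Srebf2 (chr15:82147019-82147180, plus strand): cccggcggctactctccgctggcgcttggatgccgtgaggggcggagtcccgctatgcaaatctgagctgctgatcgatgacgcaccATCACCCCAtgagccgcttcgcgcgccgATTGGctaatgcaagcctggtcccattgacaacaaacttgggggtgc
Fasn (chr11:120824548-120824797, minus strand): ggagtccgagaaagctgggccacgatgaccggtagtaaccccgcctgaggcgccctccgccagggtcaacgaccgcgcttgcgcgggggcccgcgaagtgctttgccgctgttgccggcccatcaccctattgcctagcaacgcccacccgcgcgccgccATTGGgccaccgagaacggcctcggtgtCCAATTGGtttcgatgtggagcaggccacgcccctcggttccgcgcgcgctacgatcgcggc

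RefSeq promoters were matched for 25 of the 31 members, which have 33 windows of 250 bases between them, and not for Fdps, Sqle, Stard4, Scd2, Fdft1 and Scd1. CCAAT was found in 21 of the 33 windows (63.6%), against 33.85% of all 32851 windows of that length, and GGGCGG, the box bound by Sp1, in 24 of 33 (72.7%), against 32.7%. TCACNCCAC was found in Hmgcs1 and no other member, and in 1.05% of all windows. ATCACNCCA, which can overlap it by 8 letters, was found in Srebf2 and no other member, and in 0.712% of all windows. TCACGTG was found in Hsd17b7, Sc5d and Insig1, and in 3.13% of all windows. The motifs were chosen after windows had been seen, and a match describes letters only. The members lie on 16 chromosomes, and chromosome 11 holds 4 of them, Srebf1, Acaca, Acly and Fasn. Scd2 and Scd1 are neighbours on chromosome 19, with 87590 bases between them.

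Total counts ran from 6945900 to 13266962 per library, and every member passed the filter on low counts, with 44 as the lowest count of any member in any library (Hsd17b7). Levels are counts per 1e+06 counts (CPM) after TMM scaling, and changes are fitted log2 values ± SE. ES cell markers summed to 5469 to 5528 CPM at day 0, 1867 to 1894 at day 2, 1013 to 1037 at day 4 and 822 to 853 at day 6, and 8 of 8 fell at each later day against day 0. Nanog, a defining marker, averaged 275, 82.8, 22.1 and 8.66 CPM over the days, so the day 6 libraries, which carry the same ES cell label, held little of it. Other markers fell less, as Pou5f1 did from 1465 CPM at day 0 to 290 at day 6, and Dppa5a from 971 to 225. Markers of extraembryonic endoderm summed to 124 to 129, 749 to 776, 1096 to 1108 and 999.9 to 1016 CPM, and 12 of 12 rose at each later day. Of 10 markers of feeder fibroblasts, 8 were tested, and the 10 summed to 27.9 to 31.7, 24.4 to 26.5, 38.1 to 42.8 and 174 to 192 CPM over the days. Lum and Fap had no count at day 0 and Dcn none at day 2, and 6 of the 8 rose and 2 fell at day 6 against day 0. Mitochondrially encoded genes took 1.58 to 1.63%, 1.38 to 1.45%, 2.37 to 2.54% and 1.98 to 2.01% of counts over the days. Gm42418, a gene model over ribosomal RNA sequence, took 1.41 to 1.44%, 0.322 to 0.351%, 1.51 to 1.56% and 2.64 to 2.92%. These markers and shares moved with the days, as the members did, and their part in the results was not tested. In bulk RNA, fewer cells of a type and less RNA per cell cannot be told apart.

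Most genes of both arms were higher at day 2, and lower at days 4 and 6, than at day 0. At day 2 against day 0, 22 of the 31 members (71.0%) rose, beside 34.9% of the 16468 genes tested, and 4 (12.9%) fell, beside 33.2%, so that 26 were called in either direction, beside 68.1%. The median change was 0.35 over the members and 0.02 over all genes tested. At day 4 against day 0, 4 members rose, beside 37.5% of all genes, and 21 fell, beside 36.1% (25 in all, beside 73.6%). At day 6 against day 0, 3 rose, beside 39.4%, and 26 fell, beside 37.5% (29 in all, beside 76.9%), with medians of −0.60 over the members and 0.02 over all genes. These comparisons share the day 0 libraries. A call is an adjusted p under 0.05 (edgeR, quasi-likelihood test, Benjamini-Hochberg over all genes tested).

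The turn came between day 2 and day 4. At day 4 against day 2, 1 member rose, beside 25.3% of all genes, and 26 fell, beside 24.8% (27 in all, beside 50.1%), with a median of −0.72. At day 6 against day 4, 2 members rose, beside 23.6%, and 18 fell, beside 19.3% (20 in all, beside 42.9%), with a median of −0.20. A total of 20 members rose at day 2 against day 0 and fell at day 4 against day 2, beside 7.89% of all genes tested, and 18 of these were also below day 0 at day 6 by the test, beside 1.88%. The comparisons share the day 2 libraries, so an error in those libraries enters both in opposite directions. The mean was highest at day 2 in 24 members, and in 18.1% of all genes tested. The day 0 mean was highest in Pmvk, Idi1, Srebf2, Scap and Acss2, the day 4 mean in Insig2 and the day 6 mean in Insig1. Over the 4 days together, 30 of 31 members changed by the F-test, beside 89.2% of all genes, so the share alone says little about the members. Insig2 was the exception (F-test adjusted p = 0.130 by edgeR). The members took 0.207 to 0.209% of counts at day 0, 0.312 to 0.322% at day 2, 0.186 to 0.193% at day 4 and 0.160 to 0.165% at day 6. Scaling by library size alone shifted the median of all genes by 0.13 at day 2, 0.13 at day 4 and 0.10 at day 6 against day 0 on the log2 scale. At day 2 it gave 24 members that rose and 3 that fell, and 61.5% of called genes then rose, beside 51.2% with TMM. At day 4 against day 0 it called Sqle (0.15), Cyp51 (0.13) and Stard4 (0.18) higher.

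Some calls of these 2 steps depended on single libraries or on the method. At day 4 against day 2, the falls of Ebp (adjusted p = 0.0498) and Tm7sf2 (adjusted p = 0.0130 by edgeR) were among the 26. Ebp was not called without any one of day 2 replicates 1, 2 and 3 and day 4 replicates 1 and 2 (0.0580 to 0.220). It was also lost with a replicate block (0.0574), median-ratio (0.0600) or upper-quartile scaling (0.0519), no filter on low counts (0.0875), the 6 libraries alone (0.0536) and DESeq2 (0.1775). Tm7sf2 was not called without replicate 2 of day 4 (0.0624) or of day 2 (0.0527). Insig2, not called there, was called without day 2 replicate 2 (0.0267).

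At day 6 against day 4, Stard4 (adjusted p = 0.0440) was not called without any one of the 6 libraries (0.0601 to 0.125), with a replicate block (0.0511), with no filter (0.0905) or by DESeq2 (0.1243). Hsd17b7 (0.0381) was not called without any but day 4 replicate 1 (0.0534 to 0.142), with no filter (0.0634) or by DESeq2 (0.0984). Acly (0.0452) was not called without day 4 replicates 1 or 2 or day 6 replicates 2 or 3 (0.0928 to 0.237), with no filter (0.0504) or by DESeq2 (0.0578). Ebp (0.0272) was not called without day 4 replicates 1 or 3 or day 6 replicate 3 (0.0585 to 0.178) or by DESeq2 (0.0768). Lss (0.0844), Scap (0.0522) and Scd1 (0.0642) were not called there by edgeR, but were called lower with upper-quartile scaling (0.0373 for Lss, 0.0252 for Scap and 0.0276 for Scd1), under library size alone (0.0496, 0.0297 and 0.0372) and in a fit of the 6 libraries alone (0.0473, 0.0205 and 0.0222). Scap and Scd1 were also called with a replicate block (0.0424 and 0.0440), Scap with median-ratio scaling (0.0437), and Lss (0.0264) and Scap (0.0350) without day 6 replicate 1.

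**Figure D1:**
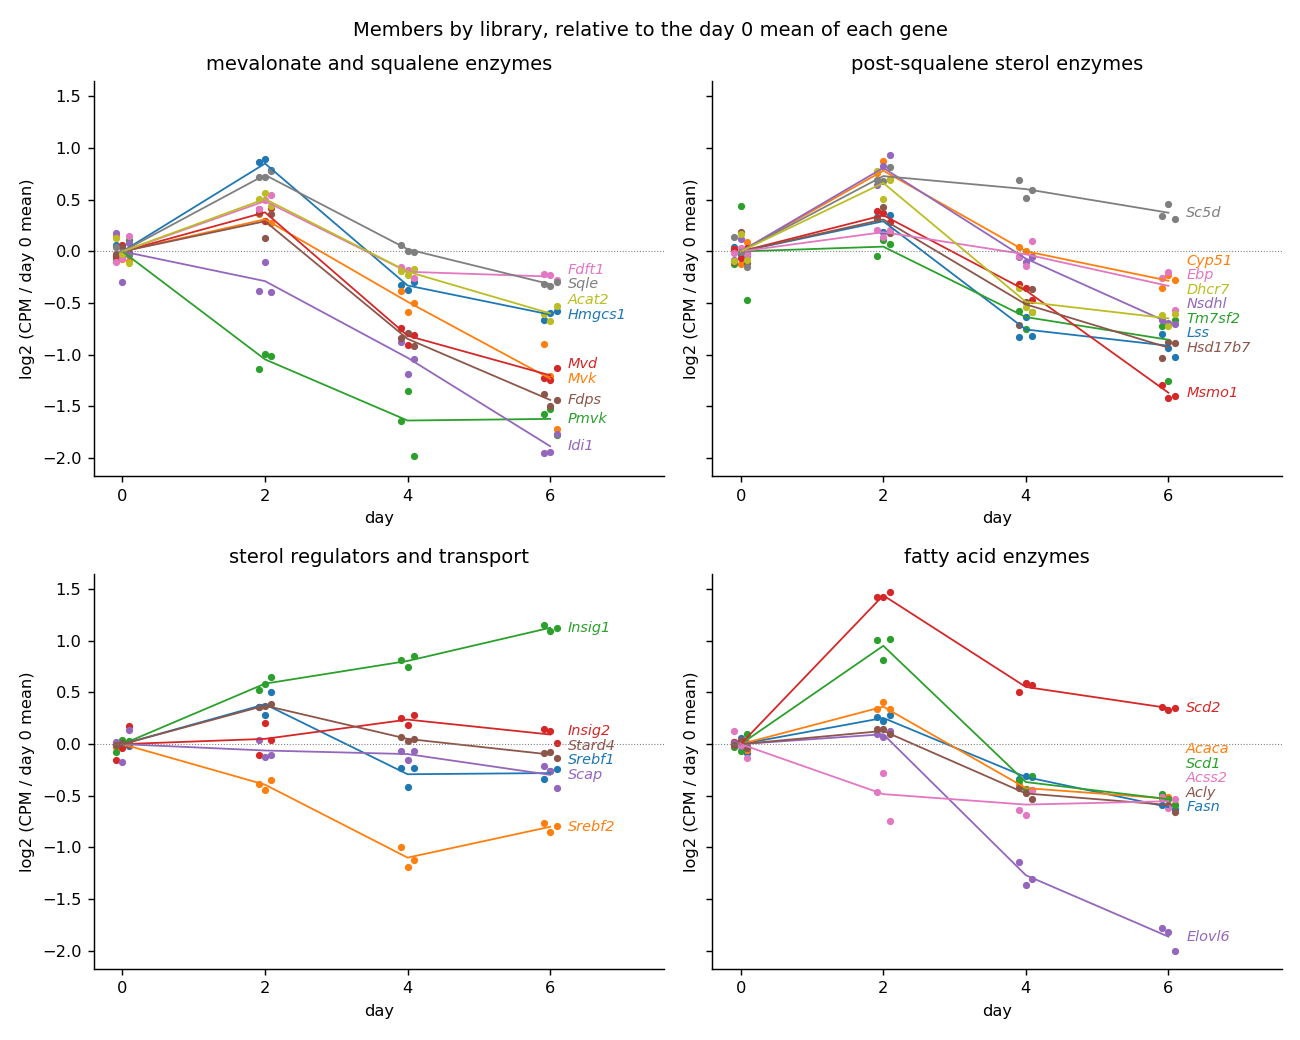
Level of each member in each library as log2 of CPM over the gene's mean at day 0 (vertical axis), by day (horizontal axis). Points are libraries, offset sideways for clarity, and lines join the day means. Most members peak at day 2 and lie below the dotted day 0 line at day 6, while Pmvk, Idi1, Srebf2 and Acss2 lie below it from day 2 on, and Insig1, Sc5d and Scd2 stay above it. By day means, Scap also lies below it from day 2 on and Insig2 above it, though at day 2 libraries of both lie on either side.

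Of the 9 enzymes that lead from acetyl-CoA to squalene epoxide, 7 rose at day 2 against day 0, 8 fell at day 4 and all 9 fell at day 6, with medians of 0.38, −0.49 and −1.20. Of all genes tested, 34.9% rose at day 2, 36.1% fell at day 4 and 37.5% fell at day 6. Hmgcs1, the cytosolic synthase that makes HMG-CoA (chromosome 13, 119690379 to 119708260, plus strand, GENCODE M21), had 145, 134 and 138 CPM at day 0, 254, 259 and 240.3 at day 2, 111, 107 and 114 at day 4, and 88.1, 92.1 and 93.2 at day 6. No 2 days overlapped. The log2 change was 0.85 ± 0.05 at day 2 against day 0 (1.80-fold, adjusted p = 2.48e-19 by edgeR) and −1.18 ± 0.05 at day 4 against day 2. By day 6 it was −0.61 ± 0.05 against day 0.

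Pmvk and Idi1 did not share the day 2 peak. Pmvk, the kinase that makes mevalonate diphosphate (chromosome 3, 89454541 to 89469013, plus strand), had 32.4, 33.0 and 36.9 CPM at day 0, 15.5, 17.2 and 16.9 at day 2, 10.9, 13.3 and 8.64 at day 4, and 11.4, 11.9 and 9.96 at day 6. Every later library was thus below every day 0 library, and days 4 and 6 overlapped. The change at day 2 against day 0 was −1.05 ± 0.09 (2.06-fold lower, adjusted p = 1.10e-12 by edgeR), the largest fall of any member in that comparison. Idi1, which interconverts isopentenyl and dimethylallyl diphosphate, had 48.2, 34.6 and 45.0 CPM at day 0, 32.6, 39.6 and 32.4 at day 2, 23.2, 18.7 and 20.7 at day 4, and 10.98, 11.1 and 12.5 at day 6. Its day 2 libraries overlapped those of day 0, and its fall there of 0.29 on the log2 scale (adjusted p = 0.0172) was not called without day 0 replicate 1 (0.118), day 0 replicate 3 (0.0710), day 2 replicate 1 (0.0752) or day 2 replicate 3 (0.0654), or under library size alone (0.139), by edgeR. At day 6 it had the largest fall against day 0 of any member, −1.90 ± 0.13 (3.73-fold lower, adjusted p = 2.80e-11).

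The rest of the upper pathway peaked at day 2. Mvd, the decarboxylase that yields isopentenyl diphosphate, averaged 31.7 ± 1.26, 41.2 ± 2.08, 18.01 ± 0.987 and 13.8 ± 0.586 CPM over the days (SD, n = 3). Mvk, mevalonate kinase, averaged 17.6 ± 1.65, 21.8 ± 0.682, 12.6 ± 0.917 and 7.495 ± 2.07 CPM, and its rise at day 2 (adjusted p = 0.0106) was not called without day 0 replicate 3 (0.0612). Both kept falling, and ended day 6 at −1.20 ± 0.09 (Mvd) and −1.20 ± 0.13 (Mvk) against day 0. Sqle, the epoxidase that commits squalene to sterols, averaged 62.1 ± 1.73, 104 ± 2.36, 63.1 ± 1.68 and 49.9 ± 0.65 CPM. It rose 1.67-fold at day 2 against day 0 (adjusted p = 6.94e-16) and overlapped day 0 at day 4 (log2 change 0.02 ± 0.06, adjusted p = 0.724, by edgeR).

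Some members share sequence with other genes, so reads may have been split between them. Of the 50-base stretches of Idi1, 25.3% also occur elsewhere, as in Gm13502, which averaged 2.248, 2.101, 1.248 and 0.458 CPM over the days. For Hmgcs1 the share was 11.6%, most often with Gm48342, which overlaps it on the other strand and averaged 0.253, 0.223, 0.0961 and 0.0599 CPM. Rasgrp2, which shares fewer stretches with Hmgcs1, averaged 15.1, 1.46, 0.542 and 0.538 CPM. Fdps, farnesyl diphosphate synthase, averaged 48.3 ± 1.29, 59.1 ± 5.5, 26.9 ± 1.18 and 17.8 ± 0.689 CPM, and 26.2% of its 50-base stretches also occur elsewhere. Its partner Gm43738, which overlaps it on the same strand, averaged 50.3, 59.8, 29.0 and 20.8 CPM. Fdft1, squalene synthase, averaged 54.2 ± 5.09, 75.9 ± 3.78, 47.3 ± 1.84 and 45.8 ± 0.969 CPM, and overlaps Ctsb on the other strand, which averaged 44.4, 78.8, 120.0 and 181 CPM. Acat2, the thiolase that makes acetoacetyl-CoA, averaged 33.4 ± 2.9, 47.5 ± 2.06, 29.2 ± 0.544 and 22.1 ± 1.08 CPM, and 39.1% of its stretches occur elsewhere, in Acat3 and Tcp1. Acat3 averaged 2.37, 2.64, 3.30 and 1.62 CPM over the days, and Tcp1 863, 876, 785 and 683. The falls at day 4 against day 0 were small in both Fdft1 (−0.19, adjusted p = 0.0105) and Acat2 (−0.20, adjusted p = 0.0194). Fdft1's was not called without day 0 replicate 3 (0.145) and Acat2's not without day 0 replicate 1 (0.177) or day 4 replicate 2 (0.0670), nor by DESeq2 (0.0639). Neither was called by edgeR under library size alone (0.413 for Fdft1 and 0.403 for Acat2) or with no filter on low counts (0.0819 for Fdft1 and 0.132 for Acat2). At day 6 against day 0 Fdft1 fell (−0.24, adjusted p = 0.00125), but not under library size alone (0.0630).

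Of the 9 enzymes from squalene epoxide to cholesterol, 7 rose at day 2 against day 0 and none fell. At day 4, 1 rose and 5 fell, and at day 6, 1 rose and 8 fell, with medians of 0.35, −0.37 and −0.68. Of all genes tested, 34.9% rose and 33.2% fell at day 2, 36.1% fell at day 4 and 37.5% at day 6. Cyp51, the lanosterol demethylase (chromosome 5, 4081145 to 4104746, minus strand), had 126, 114 and 132 CPM at day 0, 210.5, 228 and 201 at day 2, 128, 124 and 121 at day 4, and 97.1, 106 and 102 at day 6. Its day 4 libraries lay within the day 0 range, and the log2 changes were 0.78 ± 0.05, 0.00 ± 0.05 and −0.29 ± 0.05 at days 2, 4 and 6 against day 0. Nsdhl, a sterol dehydrogenase of the demethylation steps, had the largest rise of the 9 at day 2, 0.81 ± 0.07 (1.75-fold, adjusted p = 1.35e-12 by edgeR). It averaged 32.0 ± 2.53, 56.0 ± 5.56, 30.5 ± 0.575 and 19.8 ± 0.289 CPM over the days.

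Msmo1 and Sc5d both rose at day 2 against day 0, and at day 4 Msmo1 was below day 0 (−0.37) and Sc5d above it (0.60), each by the test. Msmo1, the methylsterol oxidase that acts beside Nsdhl, had 74.8, 70.4 and 75.0 CPM at day 0, 96.1, 95.1 and 89.6 at day 2, 59.1, 57.2 and 53.1 at day 4, and 30.02, 27.4 and 27.9 at day 6. No 2 days overlapped, and its change of −0.99 ± 0.07 at day 6 against day 4 (adjusted p = 1.10e-15 by edgeR) was the largest fall of any member in that comparison. Sc5d, a sterol desaturase late in the pathway, had 35.8, 32.2 and 29.2 CPM at day 0, 52.2, 51.9 and 57.0 at day 2, 52.4, 46.4 and 48.9 at day 4, and 41.0, 44.6 and 40.4 at day 6. Every later library was above every day 0 library, and Sc5d was the sterol enzyme that was called higher at day 6 than at day 0 (0.37 ± 0.08, adjusted p = 3.78e-05). Its small fall at day 6 against day 4 (−0.23, adjusted p = 0.00601) was not called without day 4 replicate 1 (0.0637).

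Lss and Dhcr7 mark the ends of this stretch. Lss, which closes the rings to make lanosterol, averaged 66.3 ± 1.65, 81.1 ± 4.91, 39.2 ± 2.96 and 35.2 ± 2.75 CPM. Dhcr7, a reductase of the last step to cholesterol, averaged 18.3 ± 1.93, 29.0 ± 2.81, 13.1 ± 1.16 and 11.7 ± 0.524 CPM. Dhcr7 rose 1.59-fold at day 2 against day 0 and Lss 1.22-fold, and at day 6 against day 0 the changes were −0.64 ± 0.11 (Dhcr7) and −0.90 ± 0.07 (Lss).

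Tm7sf2, Ebp and Hsd17b7 had low levels and weaker calls. Tm7sf2, a sterol reductase that overlaps Vps51 on the same strand, had 19.0, 21.1 and 20.5 CPM at day 2, against 17.9, 26.6 and 14.1 CPM at day 0, which overlapped (adjusted p = 0.818). It was called at day 2 without day 0 replicate 2 (log2 change 0.32, adjusted p = 0.0228), and its fall at day 4 against day 0 (−0.63, adjusted p = 0.0183) was not called without day 4 replicate 2 (0.072) or under library size alone (0.0514). At day 6 against day 0 Tm7sf2 fell (−0.83, adjusted p = 0.00363), though not in a fit of the 6 libraries alone (0.0560). Ebp, a sterol isomerase, averaged 15.4 ± 0.308, 17.5 ± 0.492, 15.1 ± 1.28 and 12.2 ± 1.59 CPM, and its fall at day 6 against day 0 (−0.33, adjusted p = 0.00683) was not called without day 6 replicate 3 (0.0661) or under library size alone (0.0647). Hsd17b7, a ketosterol reductase, averaged 8.72 ± 1.07, 10.8 ± 0.911, 6.11 ± 0.751 and 4.57 ± 0.275 CPM. Its rise at day 2 (adjusted p = 0.0262 by edgeR) overlapped day 0, and was not called by DESeq2 (0.114) or by edgeR without day 0 replicate 1 (0.115), day 0 replicate 3 (0.104) or day 2 replicate 2 (0.101).

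The 6 genes of sensing and transport did not share a direction. At day 2 against day 0, 3 of the 6 rose, beside 34.9% of all genes, and 1 fell, beside 33.2%. At day 6, 1 rose, beside 39.4%, and 3 fell, beside 37.5%, so with 6 genes these counts are near the shares of all genes. Srebf2, which codes for the SREBP best known for sterol genes (chromosome 15, 82147181 to 82205379, plus strand), had 168, 172 and 174 CPM at day 0, 131, 126 and 134 at day 2, 85.8, 75.4 and 78.9 at day 4, and 101, 95.0 and 99.1 at day 6. No 2 days overlapped, and day 4 was the lowest. The change was −0.39 ± 0.05 at day 2 against day 0 (adjusted p = 2.03e-09), −0.70 ± 0.05 at day 4 against day 2 and 0.30 ± 0.05 at day 6 against day 4 (adjusted p = 1.07e-05), all by edgeR. Srebf2 mRNA was thus lower at day 2, when most of the enzymes were at their highest. Srebf1, which codes for the SREBP best known for fatty acid genes, had 42.1, 43.0 and 41.9 CPM at day 0, 54.3, 51.4 and 60.2 at day 2, 36.03, 31.7 and 35.98 at day 4, and 33.5, 35.4 and 35.8 at day 6. It rose at day 2 (0.38 ± 0.07, adjusted p = 3.61e-06) and was below day 0 at day 4 and day 6. Per kb of exon, Srebf2 was 3.18 ± 0.0729 times Srebf1 at day 0, 1.86 ± 0.0917 at day 2, 1.82 ± 0.0837 at day 4 and 2.22 ± 0.138 at day 6 (SD, n = 3).

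Insig1, which retains SCAP in the endoplasmic reticulum and is itself a known SREBP target (chromosome 5, 28071363 to 28078662, plus strand), rose throughout. It had 54.7, 59.2 and 59.0 CPM at day 0, 82.7, 86.3 and 90.4 at day 2, 101, 96.4 and 104 at day 4, and 128, 123 and 126 at day 6. No 2 days overlapped, and each step was called: 0.59 ± 0.05 at day 2 against day 0, 0.22 ± 0.05 at day 4 against day 2 and 0.33 ± 0.05 at day 6 against day 4. Its change at day 6 against day 0 was 1.13 ± 0.05 (2.19-fold, adjusted p = 2.42e-21 by edgeR), the largest rise of any member in that comparison. Insig2, its relative, had 15.1, 16.4 and 18.9 CPM at day 0, 15.6, 19.3 and 17.3 at day 2, 19.995, 19.1 and 20.4 at day 4, and 18.6, 18.3 and 16.9 at day 6. Days 2 and 6 overlapped day 0, and day 4 lay just above it. Insig2 was called higher at day 4 against day 0 (0.24 ± 0.10, adjusted p = 0.0365 by edgeR), but not by DESeq2 (0.0911) or by edgeR without day 0 replicate 1 (0.219), day 0 replicate 2 (0.0908), day 4 replicate 1 (0.0740) or day 4 replicate 3 (0.07265). Per kb of exon, Insig1 was 3.87 ± 0.327 times Insig2 at day 0, 5.61 ± 0.520 at day 2, 5.70 ± 0.0373 at day 4 and 7.89 ± 0.433 at day 6.

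Scap and Stard4 had narrow spans of day means, 1.23-fold for Scap and 1.39-fold for Stard4. Scap, the escort of the SREBPs, averaged 34.1 ± 3.71, 32.6 ± 2.14, 31.9 ± 1.02 and 27.7 ± 2.09 CPM over the days, and was called lower at day 6 against day 0 (−0.29 ± 0.08, adjusted p = 0.00151 by edgeR). Stard4, a soluble carrier that moves cholesterol between membranes, had 41.8, 42.3 and 41.7 CPM at day 0, 53.9, 54.2 and 54.9 at day 2, 44.1, 42.9 and 43.4 at day 4, and 39.4, 39.8 and 38.2 at day 6. The day 2 libraries stood above all others. Stard4 rose at day 2 (0.37 ± 0.06, adjusted p = 7.22e-07) and was not called at day 4 (0.05, adjusted p = 0.470) or day 6 (−0.10, adjusted p = 0.147) against day 0, though with upper-quartile scaling it was called lower at day 6 (0.0434).

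**Figure D2:**
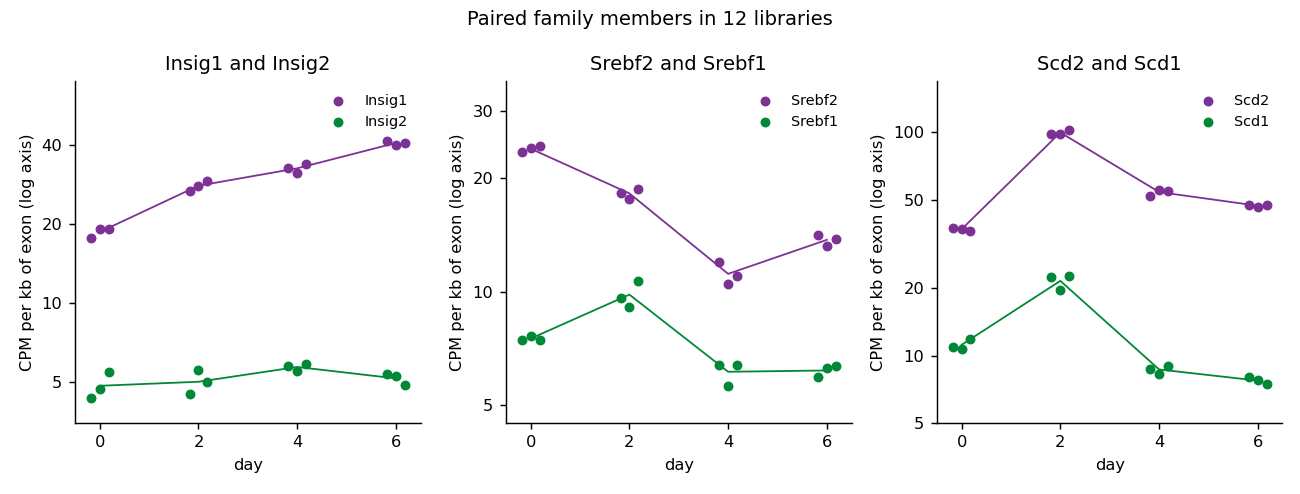
CPM per kb of exon on a log axis (vertical) by day (horizontal) for 3 pairs of related members, Insig1 and Insig2, Srebf2 and Srebf1, and Scd2 and Scd1. Points are the 12 libraries and lines join the day means. Insig1 draws away from Insig2 to 7.89 times its level at day 6, the gap between Srebf2 and Srebf1 is smallest at days 2 and 4, and that between Scd2 and Scd1 widens after day 0.

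In the fatty acid arm, 5 of the 7 enzymes rose at day 2 against day 0 and 1 fell. At day 4 and at day 6, 1 rose and 6 fell, with medians of 0.25, −0.42 and −0.55. All genes tested had 34.9% rises and 33.2% falls at day 2, and 36.1% and 37.5% falls at days 4 and 6. Acly, which releases acetyl-CoA from citrate in the cytosol, had 322, 334 and 316 CPM at day 0, 358, 358 and 346 at day 2, 241, 233 and 224 at day 4, and 226, 215 and 206 at day 6. Its rise at day 2 was small, 0.13 ± 0.04 (adjusted p = 0.00985), and was not called without day 0 replicate 3 (0.0563), while at day 6 it was at −0.59 ± 0.05 against day 0. Acss2, which makes acetyl-CoA from acetate, had 34.2, 31.2 and 28.4 CPM at day 0, 22.6, 25.8 and 18.6 at day 2, 20.1, 19.5 and 22.9 at day 4, and 21.95, 20.4 and 21.6 at day 6. All later libraries were below day 0, with a change of −0.48 ± 0.09 at day 2 (adjusted p = 2.23e-05 by edgeR). It was not called at day 4 against day 2 (−0.12, adjusted p = 0.315) except without day 2 replicate 3 (−0.23, 0.0471), nor at day 6 against day 4 (0.05, adjusted p = 0.723). Both enzymes make acetyl-CoA, but their mRNAs went opposite ways at day 2, when Acly per kb was 31.005 ± 4.56 times Acss2, against 20.1 ± 1.71 at day 0. Acss2 overlaps Gss on the other strand, which averaged 32.0, 18.2, 23.6 and 23.1 CPM over the days.

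Acaca and Fasn, which make malonyl-CoA and then palmitate, kept to the common course. Fasn (chromosome 11, 120805846 to 120824547, minus strand) had 164, 169 and 153 CPM at day 0, 193, 188 and 197 at day 2, 128, 131 and 130.2 at day 4, and 108, 106 and 104 at day 6. No 2 days overlapped. Acaca averaged 69.8 ± 2.41, 89.8 ± 2.36, 52.0 ± 0.848 and 48.5 ± 1.57 CPM, and 30.4% of its 50-base stretches occur elsewhere, in Gm5182 and Mettl6 among others. Gm5182 averaged 12.1, 13.1, 7.24 and 7.65 CPM over the days, and Mettl6 120, 134, 181 and 149. At day 2 against day 0 Fasn rose by 0.25 ± 0.04 and Acaca by 0.36 ± 0.05, and at day 6 they were at −0.61 ± 0.05 and −0.52 ± 0.06.

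The desaturases had the largest rises at day 2. Scd2 (chromosome 19, 44293674 to 44306864, plus strand), which puts the first double bond into saturated fatty acids, had 205, 202 and 197 CPM at day 0, 539.8, 539 and 559.9 at day 2, 285, 303 and 299 at day 4, and 258, 254 and 257 at day 6. No 2 days overlapped, and the rise at day 2 against day 0 was 1.44 ± 0.04 (2.71-fold, adjusted p = 1.78e-27 by edgeR), the largest of any member. Scd1 had 53.6, 52.1 and 58.4 CPM at day 0, 110.1, 96.4 and 111 at day 2, 42.7, 40.5 and 44.1 at day 4, and 39.1, 37.9 and 36.4 at day 6. Scd1 too peaked at day 2 (0.95 ± 0.06, 1.93-fold), but at day 6 against day 0 it had fallen (−0.53 ± 0.07) while Scd2 was higher (0.35 ± 0.04, adjusted p = 4.04e-09). Per kb of exon, Scd2 was 3.30 ± 0.241 times Scd1 at day 0, 4.64 ± 0.323 at day 2, 6.247 ± 0.393 at day 4 and 6.08 ± 0.217 at day 6. Of their 50-base stretches, 3.97% (Scd2) and 4.56% (Scd1) occur in other genes of the family.

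Elovl6, which elongates saturated fatty acids, had no called rise at day 2 and then fell. It had 158, 155 and 158 CPM at day 0, 168, 164 and 171 at day 2, 71.3, 60.9 and 63.3 at day 4, and 45.7, 44.5 and 39.2 at day 6. Its day 2 libraries were all above day 0, but the change of 0.10 ± 0.05 was not called (adjusted p = 0.0847). It was called with no filter on low counts (0.15, adjusted p = 0.0104), under library size alone (0.23, 0.000103) and in a fit of the 6 libraries alone (0.10, 0.0370), by edgeR. The fall of −1.36 ± 0.05 at day 4 against day 2 was the largest of any member in that comparison (2.57-fold lower, adjusted p = 6.95e-23). Over the course it also had the widest span of day means, 3.89-fold, followed by Idi1 with 3.70-fold, and Insig2 had the narrowest, 1.18-fold.

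**Figure D3:**
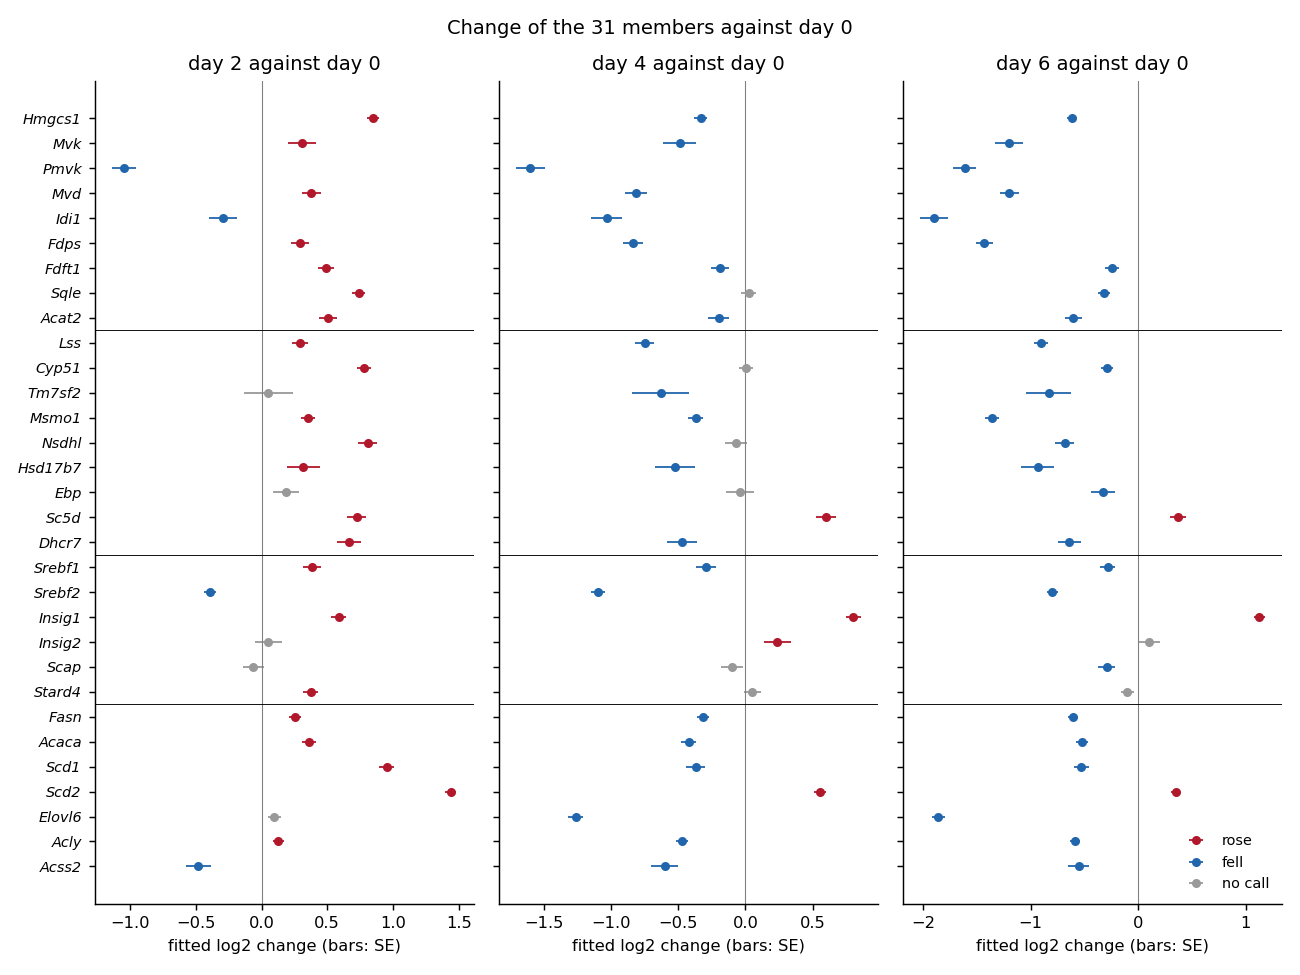
Fitted log2 change of each of the 31 members (rows, grouped by role) at day 2, day 4 and day 6 against day 0 (panels), with bars of 1 SE. Red points rose, blue points fell and grey points were not called at an adjusted p of 0.05. Red fills the day 2 panel except for Pmvk, Idi1, Srebf2 and Acss2 in blue and 5 grey genes, and blue fills the day 6 panel except for Insig1, Sc5d and Scd2 in red and Insig2 and Stard4 in grey.

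Both arms had their highest sums at day 2 and their lowest at day 6. Summed over its 18 enzymes, the sterol arm was at 853 ± 14.8 CPM at day 0, 1227 ± 12.2 at day 2, 686 ± 14.6 at day 4 and 537 ± 2.65 at day 6 (SD, n = 3). The 7 fatty acid enzymes summed to 1000.0 ± 19.3, 1479 ± 13.1, 838 ± 3.30 and 729 ± 18.7 CPM. The fatty acid sum was 1.14 to 1.21 times the sterol sum at day 0, 1.18 to 1.22 at day 2, 1.20 to 1.24 at day 4 and 1.33 to 1.39 at day 6. The day 6 ratios lay above those of all other days. These sums rest on few genes, since Scd2 and Acly together hold most of the fatty acid sum. They are also not divided by exon length, and Fasn (10.9 kb) and Acaca (17.1 kb) have the longest exon totals of the members. The sums thus follow each arm over the days, but do not rank the arms by number of transcripts.

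By the median over genes, which gives each enzyme equal weight, the sterol arm was further above day 0 at day 2 and further below it at day 6. Each library's median log2 ratio to day 0, sterol minus fatty acid enzymes, was −0.02 to 0.01 at day 0, 0.11 to 0.18 at day 2, 0.00 to 0.06 at day 4 and −0.21 to −0.095 at day 6. The 18 sterol enzymes had 14 rises and 2 falls at day 2, 1 rise and 13 falls at day 4, and 1 rise and 17 falls at day 6 against day 0, with fitted medians of 0.37, −0.42 and −0.76. Among all genes tested, rises were 34.9%, 37.5% and 39.4% at these days, and falls 33.2%, 36.1% and 37.5%. Single enzymes ran from −1.05 to 0.85 (sterol) and −0.48 to 1.44 (fatty acid) at day 2. At day 6 they ran from −1.90 to 0.37 and −1.86 to 0.35, so the arms overlapped widely. With 7 enzymes the fitted fatty acid median is 1 gene's value, Fasn at day 2 (0.25) and Acss2 at day 6 (−0.55). The ratios of the sums at days 0 and 2 overlapped, so the sums did not separate the arms at day 2. At day 6 against day 4, 13 of 18 sterol enzymes fell (median −0.32), and 4 of 7 fatty acid enzymes fell (median −0.16), beside 19.3% of all genes. Within the sterol arm the 9 enzymes up to squalene epoxide had a median of −1.20 at day 6 against day 0, and the 9 after it one of −0.68. No test was made of the difference between arms, because the members were chosen with results known.

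**Figure D4:**
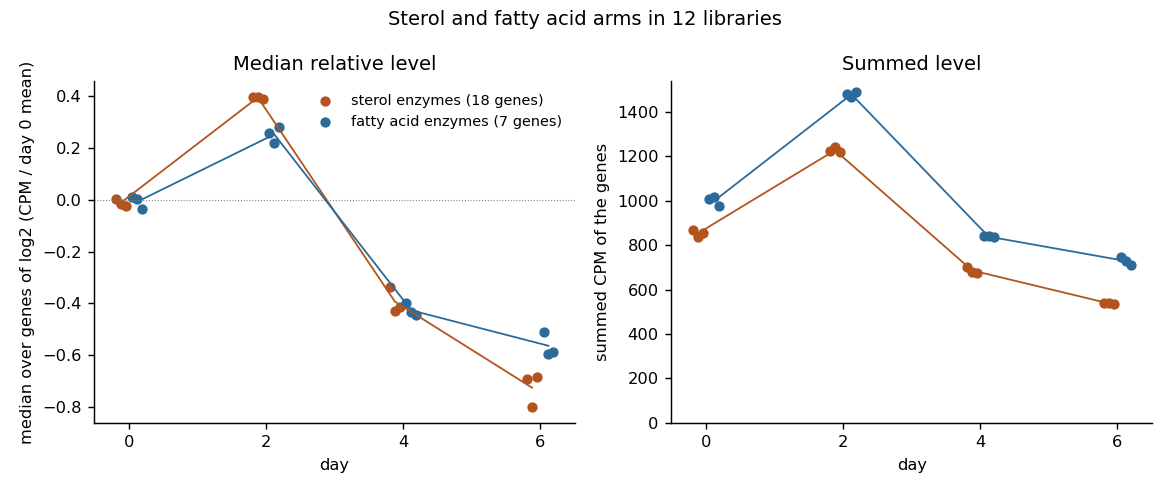
Left, the median over genes of log2 CPM over the day 0 mean, and right, the summed CPM, for the 18 sterol enzymes and the 7 fatty acid enzymes (vertical axes) by day (horizontal axes). Points are the 12 libraries and lines join the day means. Sterol enzymes lie above fatty acid enzymes at day 2 and below them at day 6 in the left panel. The fatty acid sum is the higher at every day in the right panel, where CPM are not divided by exon length.

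Levels can be compared between genes per kb of exon. At day 0 the highest were Acly (61.4 CPM per kb), Scd2 (36.8), Hmgcs1 (30.3), Cyp51 (28.1), Elovl6 (24.4) and Srebf2 (23.9), and the lowest was Hsd17b7 (1.71). Acly, at 59.9 to 63.3 over its 3 libraries, stood clear of Scd2, at 36.1 to 37.5, while Hmgcs1 (29.2 to 31.5) and Cyp51 (25.9 to 29.9) overlapped, as neighbours in the order. At day 2, Scd2 (99.97 CPM per kb) passed Acly (67.1). At day 6, the order began with Scd2 (46.9), Acly (40.8) and Insig1 (40.7), which had been in 8th place at day 0, and the libraries of Acly (39.0 to 42.8) and Insig1 (39.8 to 41.5) overlapped.

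Lists of genes around the 2 arms gave other counts. Of 10 genes of isoprenoid branches and SREBP proteases, 4 rose and none fell at day 2, and 5 rose and 2 fell at day 6 against day 0. Of all genes tested, 34.9% rose and 33.2% fell at day 2, and 39.4% rose and 37.5% fell at day 6, so the rises in this list (4 of 10 and 5 of 10) were near the background. Dhdds, a subunit of the enzyme that makes dolichol, averaged 12.6 ± 0.491, 19.6 ± 1.39, 28.7 ± 4.86 and 32.4 ± 2.64 CPM over the days. It rose at day 6 against day 0 by 1.36 ± 0.10, and Fdps, which supplies farnesyl diphosphate to such branches, was at −1.43 ± 0.08. Of 10 genes of sterol efflux, esterification and liver X receptor (LXR) response, 9 were tested, all but Nr1h3. At day 2, 4 rose and 2 fell, and at day 6, 7 rose and 1 fell against day 0. Abca1, a cholesterol efflux pump, averaged 31.2 ± 0.689, 26.0 ± 3.28, 51.9 ± 1.68 and 88.6 ± 3.08 CPM. It fell at day 2 (−0.25 ± 0.08, adjusted p = 0.00449) and was 1.504 ± 0.07 higher on the log2 scale at day 6 (adjusted p = 5.89e-22 by edgeR). Soat1, which esterifies cholesterol for storage, averaged 39.0 ± 2.77, 48.5 ± 4.26, 82.7 ± 3.85 and 99.7 ± 6.59 CPM.

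Of all genes tested, 34.9% rose and 33.2% fell at day 2, and 39.4% rose and 37.5% fell at day 6, against day 0. Of 17 genes of further elongation, desaturation and precursor supply, 12 (70.6%) rose and 2 (11.8%) fell at day 2. At day 6 against day 0, 8 (47.1%) rose and 6 (35.3%) fell, near the shares of all genes. At day 4 against day 2, 2 rose and 12 fell, when 25.3% of all genes rose and 24.8% fell. Acsl4, which activates polyunsaturated fatty acids, peaked at day 2 with 76.4 ± 4.6 CPM, and had 29.3 ± 0.846, 31.5 ± 1.61 and 29.1 ± 1.254 at days 0, 4 and 6. Acacb, the carboxylase that sits at mitochondria, averaged 51.7 ± 2.8, 18.7 ± 0.181, 11.6 ± 1.14 and 13.6 ± 0.955 CPM, and fell at day 2 (−1.47 ± 0.08, adjusted p = 7.68e-20 by edgeR), where its relative Acaca rose. Of 12 genes of fatty acid oxidation, 3 rose and 7 fell at day 2, and 3 rose and 6 fell at day 6 against day 0. Cpt1a, which admits fatty acids to mitochondria, averaged 219.8 ± 0.75, 77.9 ± 4.47, 68.5 ± 2.64 and 67.0 ± 3.15 CPM, and Acadl, an acyl-CoA dehydrogenase, averaged 51.2 ± 1.86, 96.7 ± 4.1, 152 ± 3.55 and 156 ± 2.5 CPM. The genes named from these lists are among the 2 in each with the smallest F-test p.

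**Figure D5:**
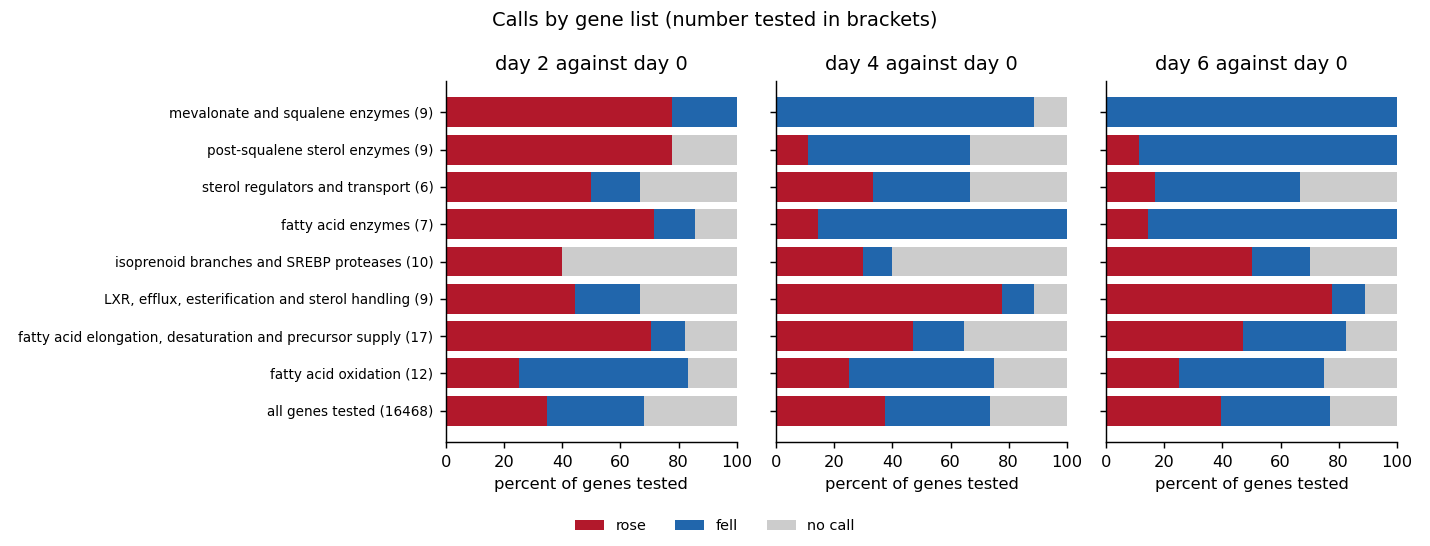
Percent of the genes tested in each list (rows, number tested in brackets) that rose, fell or were not called (horizontal axes) at day 2, day 4 and day 6 against day 0 (panels). The 4 lists at the top are the 31 members and the bottom row is all 16468 genes tested. In the upper 2 rows and the fatty acid row most genes rose at day 2 and fell at day 6, while in the LXR row 7 of 9 rose at day 4 and at day 6.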

How the data were processed

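RNA of 12 mouse ES cell libraries, 3 at each of 4 days, was measured. The authors deposited a table of raw counts, 1 row per gene. The tools named in the submitters' processing notes are featureCounts 2.0.1, HISAT2 2.1.0, FastQC 0.11.7 and DESeq2, with the mm10 genome. Strandedness, multiply mapped reads and the annotation release are not given in the sources used here, so overlapping genes cannot be told apart. Gene IDs matched GENCODE M21 (GRCm38) for 55154 of 55335 genes, and levels per kb use its merged exons. Sequence shared with other transcripts was measured in stretches of 50 bases.

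In R 4.3.3, edgeR 4.0.16 kept 16468 genes (filterByExpr by day), scaled by TMM and fitted a quasi-likelihood model with 1 coefficient per day to all 12 libraries. P-values are two-sided and Benjamini-Hochberg adjusted over all genes tested. SEs were recovered from the F statistic. Between replicates of a day, chi-square per degree of freedom ran from 1.51 to 3.80 over genes with at least 20 summed counts, so none were duplicates within counting error. Total counts of 6945900 to 13266962 set the precision, and the common coefficient of variation was 0.0415. The procedure was tested on simulated data for day 2 against day 0, with 50 genes changed at each fold. It called 52% of 1.25-fold, 72% of 1.5-fold, 84% of 2-fold and 98% of 4-fold changes, and 11 unchanged genes. A member that was not called may thus still have changed by a small amount. Alternatives were other scalings, limma-voom (limma 3.58.1), DESeq2 1.42.0, a filter of 1 CPM in at least 3 libraries or none, a replicate block, the 6 libraries of a comparison alone, a threshold of 0.01 and each library left out. The members, lists and tests were chosen with earlier results of these data known. All 31 members are named, and in each other list the 2 genes whose F-test p was smallest, 1 of which is not reported here. Figures were drawn with matplotlib 3.10.9.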

Additional observations from a re-analysis of the deposited data

How the results depend on the processing

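Of 155 pairs of a member and a comparison, 127 were called and none reversed direction under any alternative run. Of the called pairs, 16 lost the call under some alternative other than leaving out a library, and 16 when a library was left out. Of the uncalled pairs, 9 gained a call under the alternatives and 5 when a library was left out. The numbers of members and of genes changed stayed within 1.5 times their value throughout, and the cause of the lost calls was not tested.

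Medians over an arm moved by more than their spread between libraries as follows. With library size alone they were 0.50 (sterol) and 0.39 (fatty acid) at day 2, −0.29 (sterol) and −0.30 (fatty acid) at day 4, and −0.65 (sterol) and −0.45 (fatty acid) at day 6, all against day 0. With no filter on low counts they were 0.42 (sterol) and 0.30 (fatty acid) at day 2, −0.37 (sterol) and −0.38 (fatty acid) at day 4, and −0.51 (fatty acid) at day 6. With upper-quartile scaling they were 0.35 (sterol) at day 2 and −0.59 (fatty acid) at day 6. With each library left out in turn, the sterol median ran from 0.35 to 0.41 at day 2, −0.44 to −0.38 at day 4 and −0.81 to −0.63 at day 6 against day 0, and from −0.80 to −0.72 at day 4 against day 2. The fatty acid median ran from 0.21 to 0.28 at day 2, −0.45 to −0.41 at day 4 and −0.61 to −0.53 at day 6 against day 0.

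No shared deviation by replicate number was seen. Same-numbered libraries of different days had correlations of −0.0381 to 0.0343 in their deviations from the day means, and correlated best with their own number in 11 of 36 cases. The labels do not say whether these libraries share a culture or batch, and low correlations cannot exclude it. With the replicate number as a block, 26 members changed at day 2, 25 at day 4 and 29 at day 6 against day 0, 26 at day 4 against day 2 and 21 at day 6 against day 4.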
